A study of Mus musculus with 2 samples.

Results

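The 8 genes described here encode phosphodiesterases that break down cyclic AMP (cAMP), *Pde4a*, *Pde4b*, *Pde4d*, *Pde3b*, *Pde7a*, *Pde7b*, *Pde8a* and *Pde2a*. They are 8 of the 32524 genes listed, were taken by symbol, and were selected on differences between these 2 libraries and between cell types that earlier results had shown, so their values are a description of these libraries. Wild-type C57BL/6 mice, 7 to 10 weeks old at the start, received 1 mg β-glucan or PBS by intraperitoneal injection and 7 days later were given arthritis by transfer of K/BxN serum (K/BxN-STA). On day 17 of arthritis, CD45+CD11b+ cells were sorted from the synovium of the hind paws of 4 mice per group, and each group was sequenced as 1 droplet-based 3′ library. The labels of the deposited samples describe arthritis induced by antibodies and lipopolysaccharide instead, all mice were arthritic, and no label ties a cell to its mouse. The methods name 2 β-glucan preparations, from *Trametes versicolor* and from *S. cerevisiae*, and which of them these mice received is not given in the sources used here.

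Cyclic AMP is made by adenylyl cyclases when Gs-coupled receptors are engaged, and it acts through protein kinase A, the exchange factor Epac and the transcription factor CREB. Phosphodiesterases end the signal. In macrophages and neutrophils cAMP is known to dampen the release of inflammatory cytokines, and inhibitors of the PDE4 enzymes are used as anti-inflammatory drugs. PDE4, PDE7 and PDE8 enzymes act on cAMP alone. PDE3B is slowed by cyclic GMP, and PDE2A is stimulated by it.

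Upstream sequence is shown for the 3 genes on which the results below turn, *Pde4b* and *Pde7b*, which differed most between the libraries, and *Pde4d*, which differed most between cell types. Each line gives the 250 bases before a transcript start from RefSeq (GRCm38.p6 table, placed by exact match in GRCm39), 5′ to 3′ on the strand of the gene. Capitals mark a match on either strand to TGACG, the core of the cAMP response element bound by CREB (*Pde4b*), or to CATGTG, a core of the M-box bound by MITF (*Pde4d*). The *Pde7b* window held no TGACG. Where a gene had several windows, the first that held the motif is shown. The windows lie at chr4:102278502-102278751 (+), chr13:108790461-108790710 (+) and chr10:20424075-20424324 (-), all at internal starts inside the annotated span of the gene.
Pde4b: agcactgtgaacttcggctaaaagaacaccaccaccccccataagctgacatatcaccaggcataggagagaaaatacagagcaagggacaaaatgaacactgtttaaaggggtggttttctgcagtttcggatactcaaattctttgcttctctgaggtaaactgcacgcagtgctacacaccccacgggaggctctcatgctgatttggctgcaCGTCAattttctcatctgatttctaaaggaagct
Pde4d: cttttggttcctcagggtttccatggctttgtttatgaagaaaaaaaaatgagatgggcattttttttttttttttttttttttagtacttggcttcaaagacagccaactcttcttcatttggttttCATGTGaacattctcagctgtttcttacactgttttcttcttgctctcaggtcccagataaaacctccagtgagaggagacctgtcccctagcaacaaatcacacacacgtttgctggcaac
Pde7b: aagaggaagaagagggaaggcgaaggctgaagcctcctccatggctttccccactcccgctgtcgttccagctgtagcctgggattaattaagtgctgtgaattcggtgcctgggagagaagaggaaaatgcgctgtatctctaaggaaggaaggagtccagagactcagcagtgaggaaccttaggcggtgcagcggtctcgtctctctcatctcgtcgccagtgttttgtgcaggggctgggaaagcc
Of the 8 genes, 6 had entries, with 15 windows among 32851 of all genes, and *Pde3b* and *Pde7a* had none. The core TGACG stood in 3 of the 15 windows, 1 each of *Pde4a*, *Pde4b* and *Pde8a*, against 17.8% of all windows. In the *Pde4b* window its first base was 34 bases before the start (position -34). The full element TGACGTCA, which contains that core, was in 0 of the 15 windows and in 1.55% of all windows. CATGTG was in 1 of the 15, that of *Pde4d* at position -122, against 12.3%, and the E-box CACGTG was in 0 against 6.02%. These matches describe letters and not binding. In GRCm39, *Pde4a* lies at chr9:21073005-21124544 (+), *Pde4b* at chr4:101944740-102465716 (+) and *Pde4d* at chr13:108586482-110092497 (+). *Pde7a* lies at chr3:19277270-19365890 (-), *Pde7b* at chr10:20273567-20600886 (-) and *Pde8a* at chr7:80862941-80984284 (+). *Pde3b*, at chr7:114013685-114138486 (+), and *Pde2a*, at chr7:101070825-101162038 (+), share a chromosome with *Pde8a*. Exons make up 0.963% of the *Pde4d* span, 2.27% of *Pde4b*, 3.88% of *Pde7b* and 16.5% of *Pde4a*, so introns make up nearly all of the long genes.

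The β-glucan library held 81611849 unique molecular identifiers (UMIs, counted transcripts) over 7196 barcodes, and the PBS library 73874602 over 5760. After barcodes under 500 genes or over 10% mitochondrial UMIs were removed, 5696 and 4553 cells remained. They formed 19 rebuilt clusters, built without the 8 genes and named from fixed markers as X-like cells. The main myeloid compartment held 4618 β-glucan and 3677 PBS cells. It comprised macrophage-like clusters 0 (led by *Ednrb* and *Enpep*), 1 (*Vsig4*, *S100b*), 2 (*Tubb3*, *Fxyd2*), 4 (*Olr1*, *Nt5e*), 5 (*Gpnmb*, *Apoe*), 7 (*Cd93*, *Mmp19*) and 10 (*Ldlrad3*, *Taco1*), APC-like clusters 6 (*Ccl17*, *Dcstamp*) and 18 (*Clec9a*, *Xcr1*), and cluster 3 (*H2-Aa*, *H2-Eb1*), left unnamed because its leading genes are antigen presentation genes whereas its markers scored as macrophage. Outside it were B cell-like clusters 8 (*Igkc*, *Ly6d*) and 16 (*Cacna1e*, *Bank1*), neutrophil-like cluster 9 (*Retnlg*, *S100a9*), T cell-like cluster 11 (*Il23r*, *Nebl*), basophil/mast-like cluster 12 (*Mcpt4*, *Cma1*), stromal-like cluster 13 (*Col1a1*, *Fmod*), cytotoxic lymphocyte-like cluster 14 (*Gzma*, *Gm2682*), proliferating-like cluster 15 (*H1f5*, *Top2a*) and unnamed cluster 17 (*Tagln*, *Ptprb*), with endothelial and smooth muscle genes. Stromal, B cell and T cell genes in some of these clusters are not those of myeloid cells, at which the CD11b+ sort was aimed.

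Levels are UMIs of a gene per 1000000 UMIs of the same cells (CPM), and differences are log2 ratios of β-glucan over PBS. Where a pair of values stands without library names, the first is the β-glucan library and the second the PBS library. Brackets hold 95% intervals, exact Poisson for CPM, Clopper-Pearson for shares and conditional binomial for ratios, which cover counting error only. Each group is 1 library, so replicate error is unknown and nothing was tested. Levels of different genes are not compared, since 3′ counts depend on each gene's end and introns.

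*Pde4b* was lower and *Pde7b* higher with β-glucan in the main myeloid compartment as a whole and in each of its 9 larger clusters, although 1 interval of each includes 0. In the small APC-like cluster 18 *Pde4b* was at 107 and 87.4 CPM, with an interval of the log2 ratio of -0.25 to 0.85. In the compartment, 7 of the 8 genes reached a mean of 5 CPM over both libraries, and *Pde2a* did not. Of the 7, *Pde7b* was at least 25% higher with β-glucan and *Pde4b* and *Pde3b* at least 20% lower (a ratio of at most 0.8). Over all 9809 genes that reached 5 CPM, 3.86% were past this fold on the higher side and 3.12% on the lower. The median log2 ratio was 0.12 over the 7 genes and 0.03 over all 9809. In the 9 compartment clusters that had 100 cells or more per library, *Pde4b*, *Pde3b* and *Pde8a* were lower in all 9, as were 3.53% of all genes, and *Pde7b* was higher in all 9, as were 5.56%. Lower in at least 8 of the 9 were 10.2% of all genes, and higher in at least 8 were 14.7%. The genes were gathered with this contrast known, so nothing is read from these counts.

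**Figure D1:**
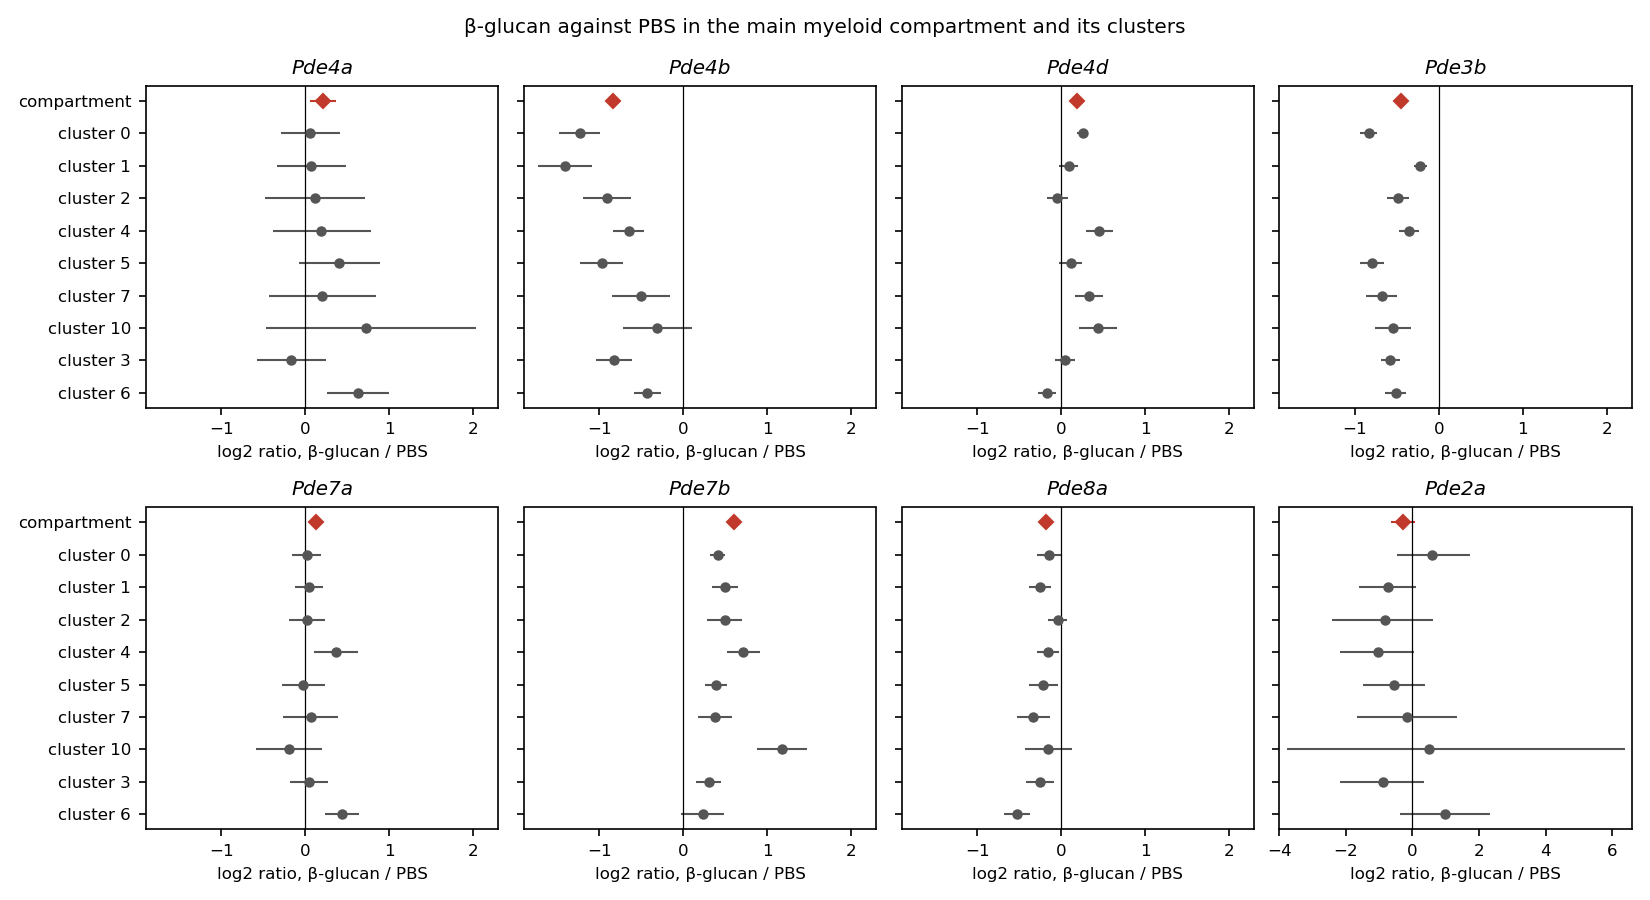
Log2 ratio of β-glucan over PBS (x axis) for each gene in the whole main myeloid compartment (red diamond) and in its 9 clusters of 100 or more cells per library (grey points), with 95% counting intervals as bars. *Pde4b* and *Pde3b* lie left of 0 in all 9 clusters and *Pde7b* right of 0 in all 9, whereas the points of *Pde7a* gather around 0, and *Pde2a* has its own wider x axis.

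Among the PDE4 genes, *Pde4b*, the member known to be induced by inflammatory stimuli in monocytes and macrophages, had 2250 and 3709 compartment UMIs. This was 34.4 CPM (33.0 to 35.8) against 61.2 CPM (59.3 to 63.2). The log2 ratio was -0.83 (-0.91 to -0.76), lower than in all but 0.408% of the genes that reached 5 CPM. The gene was gathered with this contrast known, so nothing is read from its rank. The gene was lower with β-glucan in each compared cluster, and the interval lay below 0 in 8 of the 9.

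The difference in *Pde4b* was widest in the macrophage-like clusters 1 and 0. Cluster 1, led by *Vsig4*, had 11.04 and 29.2 CPM, for a log2 ratio of -1.40 (-1.72 to -1.09). Cluster 0 had 19.7 and 46.3 CPM, for a log2 ratio of -1.23 (-1.48 to -0.99). Cluster 1 was also where the gene was lowest within the compartment. Cluster 4, which also had the immediate-early genes *Atf3* and *Ier3* among its leading genes, had 62.1 and 97.6 CPM, for a log2 ratio of -0.65 (-0.83 to -0.47). Cluster 10, whose cells had the lowest median of UMIs within the compartment, had 75.5 and 93.4 CPM, and its interval of -0.71 to 0.10 includes 0. In APC-like cluster 6 the log2 ratio was -0.43 (-0.59 to -0.27). The share of macrophage-like cells with a *Pde4b* UMI was 16.2% (15.02 to 17.4) against 28.7% (27.0 to 30.5). Thinning each cell to 2000 UMIs left out the cells below that depth, 140 and 128 of all cells kept. Of basophil/mast-like cells, 21 in each library were left out. The thinned shares of macrophage-like cells were 4.75% and 8.64%. In thinned basophil/mast-like cells, where the gene was lowest, 1 of 75 cells (1.33%) and 0 of 90 had one, where a count of 0 allows up to 3.33% at that depth. Without thinning, 6.25% and 3.60% of basophil/mast-like cells had one. Median depths were 12802 and 14898 UMIs per macrophage-like cell and 3970 and 3561 per basophil/mast-like cell.

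Outside the compartment, *Pde4b* had its highest levels, in neutrophil-like cells (340 and 658 CPM), in B cell-like clusters 8 (309 and 346) and 16 (239 and 288), and in cluster 17 (217 and 259). Over both libraries it ranged 27.3-fold between clusters, from 434 CPM in neutrophil-like cells to 15.9 in basophil/mast-like cells, and the intervals of those lowest cells and of cluster 1 (19.1 CPM) overlap. The log2 ratio was -0.24 (-0.40 to -0.08) in B cell-like cells, -0.62 (-0.97 to -0.28) in stromal-like cells and -0.90 (-1.31 to -0.51) in proliferating-like cells. The stromal value rests in part on 1 PBS cell, which held 46 of the 158 PBS UMIs, and in proliferating-like cells the 3 cells with most held 40.0% and 34.5% of the UMIs. T cell-like cells had 146 and 124 CPM, and their interval of -0.09 to 0.56 includes 0.

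In neutrophil-like cells the log2 ratio of *Pde4b* was -0.95 (-1.08 to -0.83). Of the 6354 genes with at least 20 CPM there, 16.4% were at least 20% lower and 30.2% at least 25% higher. At a finer resolution of 1, these cells split in 2. The piece led by *Retnlg* and *S100a9*, with the neutrophil genes *Mmp8* and *Cxcr2*, had 113 β-glucan and 128 PBS cells, and *Pde4b* was at 944 and 1019 CPM, for a log2 ratio of -0.11 (-0.28 to 0.06). The piece led by *Acod1* and *Il1r2*, with *Il1b* and *Ptgs2*, had 134 and 44 cells, and *Pde4b* was at 225 and 365 CPM, for a log2 ratio of -0.70 (-0.90 to -0.49). The whole cluster thus combined pieces at different levels in different proportions. The cells of the second piece had medians of 18028 and 17857 UMIs, against 4088 and 4388 in the first, and 33.1% of them were among the cells of highest doublet score, against 2.49%. The part of doublets in the result was not tested. *Pde3b* was lower with β-glucan in both pieces, with log2 ratios of -0.80 (-1.23 to -0.37) and -1.03 (-1.26 to -0.79). *Pde4d* was at 58.7 and 82.2 CPM in the first piece, with an interval of -1.16 to 0.16, and at 230 and 156 CPM in the second, for a log2 ratio of 0.56 (0.28 to 0.85).

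**Figure D2:**
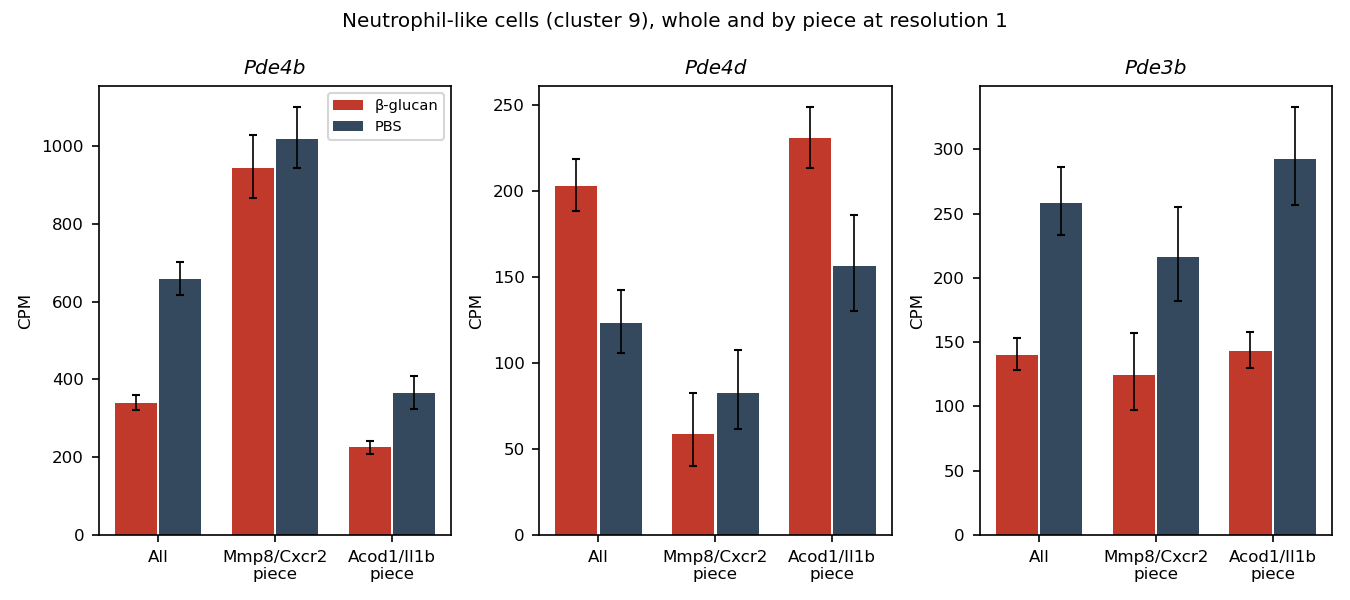
CPM (y axis, from 0) of *Pde4b*, *Pde4d* and *Pde3b* in all neutrophil-like cells and in their 2 pieces at resolution 1, with β-glucan in red, PBS in blue and 95% Poisson intervals as bars. *Pde4b* was at 944 and 1019 CPM in the *Mmp8*/*Cxcr2* piece, where the intervals overlap, whereas *Pde3b* was lower with β-glucan in both pieces.

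*Pde4d*, which spans 1506 kb and is the longest of the 8 genes, had 12944 and 10546 compartment UMIs, 198 CPM (194 to 201) and 174 CPM (171 to 177). The log2 ratio was 0.18 (0.15 to 0.22), close to the median of 0.19 over the 208 genes of at least 300 kb. It was higher in 7 of the 9 clusters, with the interval above 0 in 4 and below 0 in 1. Cluster 0 had 445 and 372 CPM, the highest level among the macrophage-like clusters, and a log2 ratio of 0.26 (0.19 to 0.32). In cluster 4 the gene was at 134 and 97.6 CPM, for a log2 ratio of 0.46 (0.30 to 0.61).

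In APC-like cluster 6, *Pde4d* was at 153 and 172 CPM, for a log2 ratio of -0.17 (-0.28 to -0.06). At resolution 1 most of that cluster, 277 β-glucan and 437 PBS cells led by *Dcstamp* and *Cd209a*, had 149 and 145 CPM, with an interval of -0.08 to 0.16. Another 73 cells, all PBS, joined a piece led by *Arg1* and *Slc7a2* and had 293 CPM, and the remaining 9 β-glucan and 7 PBS cells joined the piece led by *Clec9a*. The *Arg1* piece as a whole had 18 β-glucan and 78 PBS cells, but none of the former came from cluster 6. In those 73 PBS cells *Pde8a* was at 167 CPM, against 92.5 in the PBS cells of the larger piece. In the larger piece *Pde4b* (-0.57), *Pde3b* (-0.51) and *Pde8a* (-0.35) kept a log2 ratio whose interval lay below 0.

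The highest level of *Pde4d* was in basophil/mast-like cells, at 6002 CPM (5803 to 6206) and 5615 CPM (5421 to 5814). Over both libraries this was 205-fold the level in B cell-like cluster 8, 28.3 CPM, and no other cluster came near it, with cluster 0 next at 413 CPM and overlapping cluster 17 at 394. The gene was seen in nearly each of these cells. A *Pde4d* UMI was found in 94 of 96 β-glucan and 107 of 111 PBS cells, with medians of 22.5 and 18 UMIs per cell, and the 3 cells with most held 14.5% and 11.04% of them. Of the 75 and 90 cells deep enough to be thinned to 2000 UMIs, 97.3% (90.7 to 99.7) and 94.4% (87.5 to 98.2) had one. This was against 5.97% and 3.43% of thinned B cell-like cells, where median depths before thinning were 5552 and 5958 UMIs. The log2 ratio in basophil/mast-like cells was 0.10 (0.03 to 0.17). In the compartment the 9 basophil/mast markers summed to 10.7 and 9.14 CPM, with 8 of them seen in both libraries, whereas the 10 macrophage markers summed to 11288 and 10783 CPM.

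Stromal-like cells had 443 and 193 CPM of *Pde4d*, for a log2 ratio of 1.20 (1.01 to 1.39). Of 6958 genes there, 11.8% were at least 25% higher and 17.9% at least 20% lower. A UMI was found in 79 of 106 and 56 of 73 of these cells, and the 3 cells with most held 20.7% and 24.8% of the UMIs, so the gene was spread over cells. The opposite was seen in cluster 17, at 276 and 686 CPM, where 3 of 29 PBS cells held 64.5% of the PBS UMIs. At resolution 1, 33 β-glucan and 17 PBS cells of cluster 17 joined the stromal-led cluster. In them the log2 ratio of *Pde4d* was -1.65 (-1.98 to -1.32), against 1.20 in the stromal-like cells. APC-like cluster 18 had 89 and 7 UMIs, and 3 of its 32 β-glucan cells held 86.5%. Values of clusters 17 and 18 thus rest on a few cells.

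*Pde4a*, the remaining PDE4 gene, was low in all cells, at 12.6 CPM (11.7 to 13.4) and 10.9 CPM (10.0 to 11.7) in the compartment, for a log2 ratio of 0.21 (0.06 to 0.36). In 8 of the 9 clusters the β-glucan level was above the PBS level, and the interval lay above 0 only in cluster 6, at 17.8 and 11.5 CPM with a log2 ratio of 0.63 (0.26 to 0.99). Its highest level was 34.6 CPM in APC-like cluster 18, from 34 and 8 UMIs, followed by cluster 17 and basophil/mast-like cells. Each cluster's interval overlapped that of the next in the order, down to 4.71 CPM in B cell-like cluster 8.

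**Figure D3:**
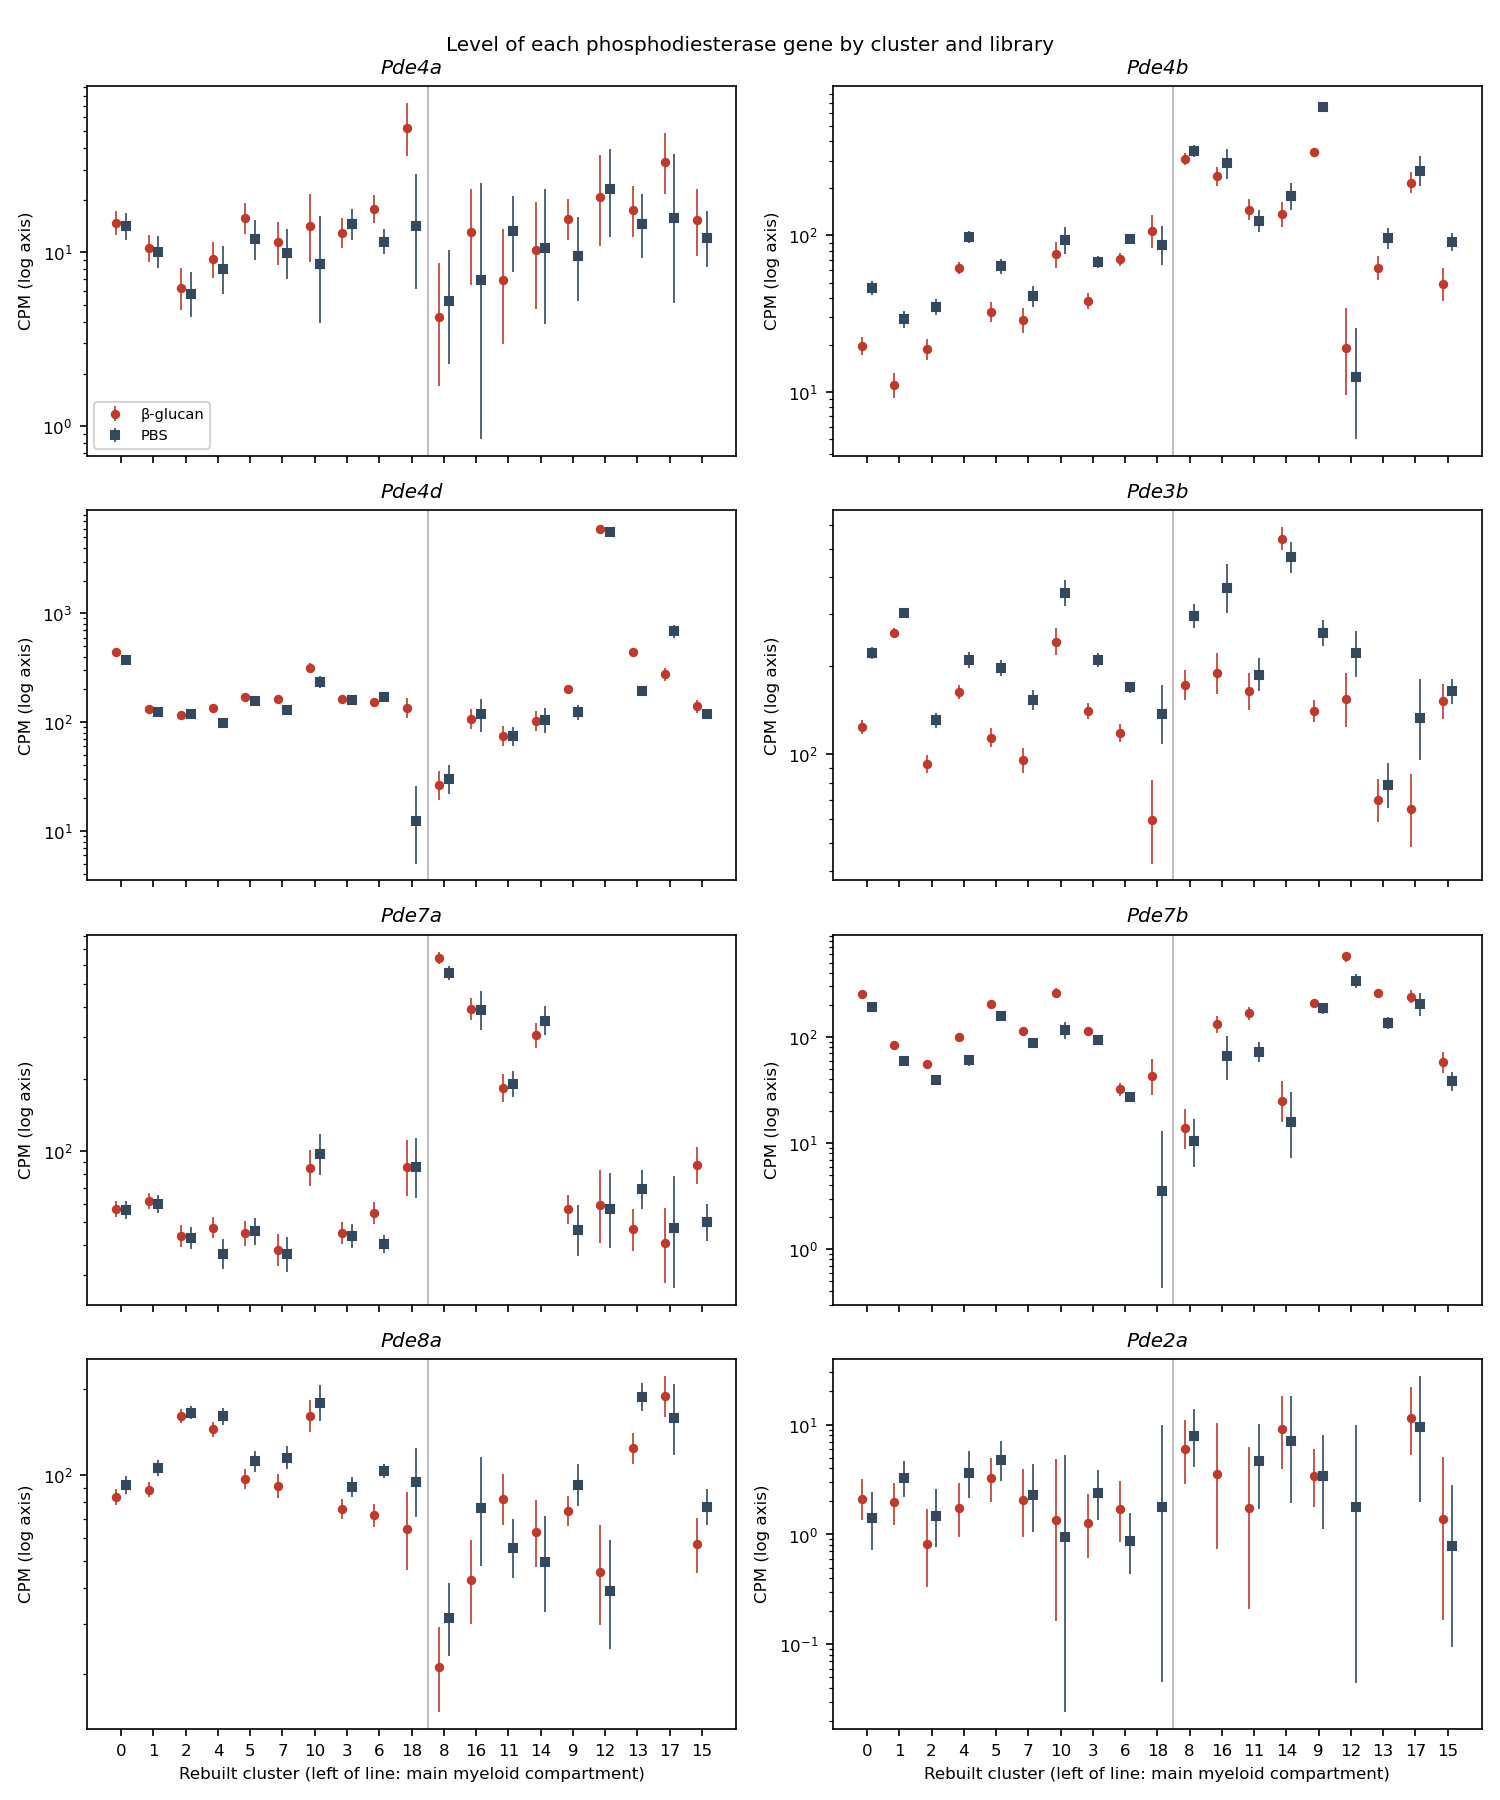
Level of each gene in CPM (y axis, log scale) in the 19 rebuilt clusters (x axis, by cluster number), with β-glucan in red, PBS in blue, 95% Poisson intervals as bars and clusters without a UMI not drawn. *Pde4d* stands apart in basophil/mast-like cluster 12, at 6002 and 5615 CPM, and *Pde7a* in B cell-like cluster 8, at 646 and 558. *Pde4b* is highest in neutrophil-like cluster 9, at 340 and 658, but in the β-glucan library B cell-like cluster 8 is close to it, at 309.

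*Pde7b*, which encodes a cAMP-specific enzyme that rolipram does not inhibit, had 8274 and 5037 compartment UMIs. The levels were 126 CPM (124 to 129) and 83.1 CPM (80.9 to 85.5). The log2 ratio was 0.60 (0.55 to 0.66), above that of 99.7% of the genes that reached 5 CPM. Nothing is read from this rank either, since the gene was gathered with the contrast known. *Pde7b* was higher with β-glucan in all 9 clusters, and the interval lay above 0 in 8. Genes of at least 100 kb took 28.4% and 26.7% of the UMIs of cluster 10, the largest shares among the 9 clusters, and 20.3% and 18.1% in cluster 4. Over the compartment the log2 ratio was 0.30 in cells matched on this share, as described below. Whether the shares bear on the ratios of single clusters was not tested. Cluster 10 had the largest log2 ratio of *Pde7b*, 1.17 (0.88 to 1.48), at 262 and 116 CPM. Cluster 4 followed at 98.9 and 60.2 CPM, for a log2 ratio of 0.72 (0.52 to 0.91), and the log2 ratios of the other compared clusters ran from 0.23 in cluster 6, whose interval includes 0, to 0.50 in cluster 1. The gene was low in cluster 6, at 32.2 and 27.4 CPM, and this cluster had fewer β-glucan cells (286) than PBS cells (517). In its larger piece at resolution 1, described above, the log2 ratio was 0.32 (0.05 to 0.58). Without cluster 6 the log2 ratio over the compartment was 0.48, and with equal weight for each cluster it was 0.51.

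*Pde7b* was also higher with β-glucan in several cell types outside the compartment. Basophil/mast-like cells, where it was highest, had 573 and 338 CPM, for a log2 ratio of 0.76 (0.50 to 1.03). Of 6621 genes there, 26.2% were at least 25% higher and 21.8% at least 20% lower. Of the 75 and 90 basophil/mast-like cells deep enough to be thinned to 2000 UMIs, 58.7% (46.7 to 69.9) and 38.9% (28.8 to 49.7) had a *Pde7b* UMI. This was against 65.6% and 51.4% of all of them without thinning and 3.46% and 1.72% of thinned B cell-like cells. T cell-like cells had 167 and 72.6 CPM, for a log2 ratio of 1.20 (0.84 to 1.57), and of 7068 genes there 22.6% were at least 25% higher. Few of those cells carried the gene, 23 of 115 and 13 of 116, the 3 cells with most held 59.6% and 52.7% of its UMIs, and at 2000 UMIs per cell the shares were 7.83% and 6.03%, with overlapping intervals. Stromal-like cells had 258 and 136 CPM, for a log2 ratio of 0.93 (0.70 to 1.16). Neutrophil-like cells had 209 and 186 CPM, with an interval of -0.03 to 0.38 that includes 0. Within their 2 pieces at resolution 1 the interval lay above 0. The log2 ratio was 0.35 (0.04 to 0.66) in the *Mmp8*/*Cxcr2* piece. It was 0.53 (0.22 to 0.84) in the *Acod1* piece, where 33.1% of cells were among those of highest doublet score. The log2 ratio of 1.47 in B cell-like cells came with a split of their 2 clusters. Cluster 8 had 13.9 and 10.5 CPM from 23 and 16 UMIs, and cluster 16, with 78 β-glucan and 33 PBS cells, had 131 and 65.9 CPM, for a log2 ratio of 0.997 (0.29 to 1.78), where 3 PBS cells held 14 of the 19 PBS UMIs.

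*Pde7a*, the other gene of its family and known from T cells, had its highest levels in lymphoid cells. B cell-like cluster 8 had 646 and 558 CPM, cluster 16 had 394 and 388, cytotoxic lymphocyte-like cells 305 and 352, and T cell-like cells 184 and 191. The intervals of these 4 clusters, over both libraries, do not overlap each other or those of any other cluster, and the gene was lowest in macrophage-like cluster 7, at 37.6 CPM, a 16.1-fold range. At 2000 UMIs, 63.8% and 61.4% of B cell-like cells had a UMI, against 9.45% and 8.91% of macrophage-like cells, and without thinning the B cell-like shares were 88.0% and 86.9%. In the compartment it had 3394 and 2884 UMIs, 51.8 CPM (50.1 to 53.6) and 47.6 CPM (45.9 to 49.4), for a log2 ratio of 0.12 (0.05 to 0.20). The interval lay above 0 in cluster 6, with a log2 ratio of 0.44 (0.24 to 0.64), and in cluster 4, with 0.36 (0.11 to 0.63), and it included 0 in the other 7. The genes *Mtfr1* and *Gm16093* overlap *Pde7a* on the other strand.

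*Pde8a*, a cAMP-specific enzyme of high affinity, had 6744 and 7041 compartment UMIs, 103 CPM (101 to 106) and 116 CPM (114 to 119), for a log2 ratio of -0.17 (-0.22 to -0.13). It was lower in all 9 clusters, and the interval lay below 0 in 7. The largest difference among them was in cluster 6, at 72.0 and 103 CPM, for a log2 ratio of -0.52 (-0.68 to -0.36), and it was -0.35 in the larger piece described above. In stromal-like cells it was at 124 and 187 CPM, for a log2 ratio of -0.59 (-0.84 to -0.35), whereas T cell-like cells had 82.1 and 55.4 CPM, for a log2 ratio of 0.57 (0.11 to 1.03). Within the compartment it was highest in clusters 10, 2 and 4, at 168, 163 and 150 CPM over both libraries, with overlapping intervals, and it was lowest of all in B cell-like cluster 8, at 26.1 CPM.

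*Pde3b*, whose product is inhibited by cyclic GMP and takes part in insulin signalling in fat and liver, had 9709 and 12279 compartment UMIs. The levels were 148 CPM (145 to 151) and 203 CPM (199 to 206), for a log2 ratio of -0.45 (-0.49 to -0.41), and the interval lay below 0 in all 9 clusters. The log2 ratio ran from -0.84 (-0.94 to -0.74) in cluster 0, at 124 and 221 CPM, to -0.22 (-0.30 to -0.15) in cluster 1, at 259 and 302 CPM, where the gene was high in both libraries. With equal weight for each cluster it was -0.56. The share of macrophage-like cells with a UMI was 65.9% and 75.9%, and 23.5% (22.1 to 24.9) and 32.9% (31.1 to 34.7) at 2000 UMIs, against 15.1% and 13.7% of stromal-like cells, whose depths were 17689 and 20874 UMIs and where the gene was lowest.

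The lower level of *Pde3b* with β-glucan was not shared by all lymphoid cells. B cell-like cells had 177 and 307 CPM, for a log2 ratio of -0.79 (-0.97 to -0.61), and the interval lay below 0 in both of their clusters. Of 6685 genes there, 10.3% were at least 20% lower and 21.1% at least 25% higher. Cytotoxic lymphocyte-like cells, where the gene was highest, had 540 and 468 CPM, with an interval of -0.01 to 0.43, where 24.9% of 6795 genes were at least 25% higher and 20.8% at least 20% lower. T cell-like cells had 164 and 187 CPM, with an interval of -0.47 to 0.10. Neutrophil-like cells had 140 and 258 CPM, for a log2 ratio of -0.88 (-1.08 to -0.68). The gene *4933406I18Rik* overlaps *Pde3b* on the other strand.

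*Pde2a*, which encodes an enzyme stimulated by cyclic GMP that acts on cAMP and cyclic GMP, was near the limit of detection, with 118 and 133 compartment UMIs, 1.80 CPM (1.49 to 2.16) and 2.195 CPM (1.84 to 2.60). The interval of the log2 ratio, -0.65 to 0.08, includes 0. In macrophage-like cells alone it had 97 and 105 UMIs, for a log2 ratio of -0.43 (-0.84 to -0.02), and without cluster 6 the compartment value was -0.49. Its highest level was 10.9 CPM (5.64 to 19.1) in cluster 17, with 12 UMIs, and stromal-like cells had 0 of 3700918 UMIs, which allows up to 0.811 CPM. Its counts may include reads of *Gm45837*, which overlaps it on the same strand.

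The libraries also differed by gene span. Genes of at least 100 kb took 19.5% and 17.6% of the compartment's UMIs, and mitochondrial genes took 3.27% and 3.45%. The median log2 ratio was greater at longer spans, from -0.06 over 1846 genes under 10 kb to 0.19 over 208 genes of at least 300 kb. Of the latter, 14.4% were lower with β-glucan, 3.85% were at least 20% lower and 15.4% at least 25% higher. *Pde4b*, which spans 521 kb, was among those at least 20% lower, and *Pde7b*, at 327 kb, among those at least 25% higher. *Pde7b* and *Pde4d* thus lay on the side of most long genes. When 3182 cells per library were matched within clusters on their long-gene share, the log2 ratio was -0.75 for *Pde4b*, -0.66 for *Pde3b*, -0.33 for *Pde8a*, 0.30 for *Pde7b*, 0.17 for *Pde4a*, 0.0076 for *Pde4d* and -0.015 for *Pde7a*. Matching left *Pde4b* and *Pde3b* lower, brought *Pde8a* to at least 20% lower and brought *Pde7b* below a 25% difference. It left *Pde4d* and *Pde7a* near 0, with *Pde7a* changing sign. Dissociation stress genes took 0.247% and 0.285% of the UMIs. In cells matched on them the log2 ratio was -0.65 for *Pde4b*, -0.51 for *Pde3b* and 0.44 for *Pde7b*.

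**Figure D4:**
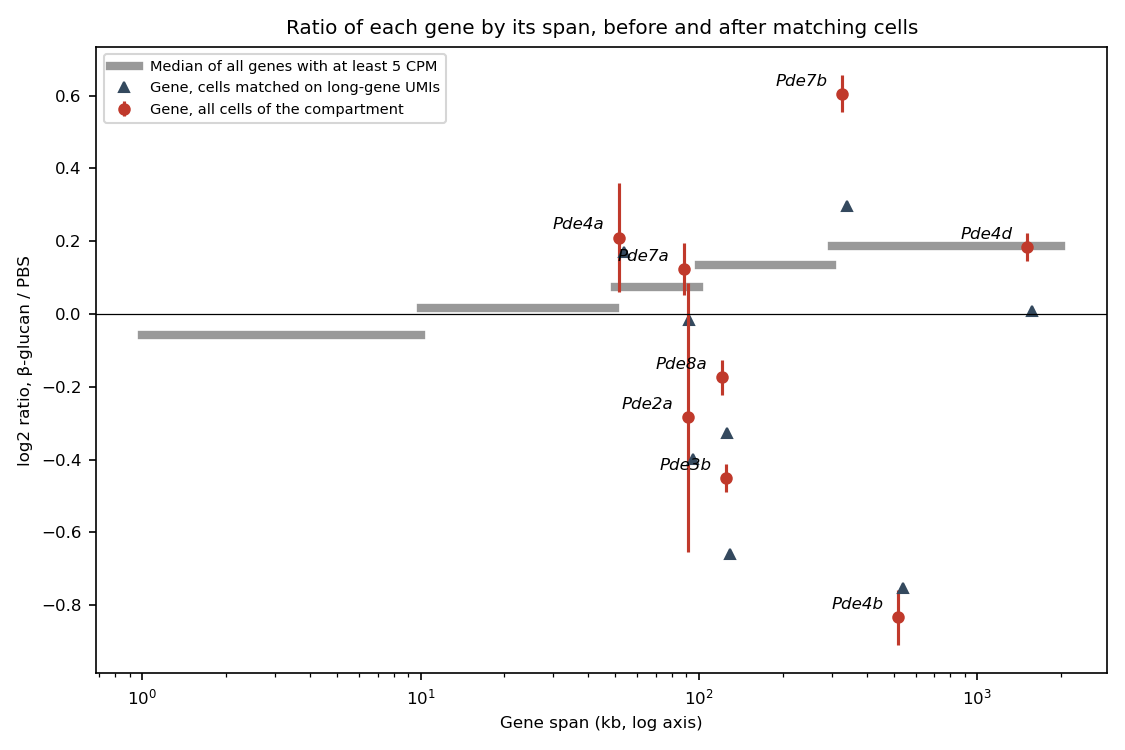
Log2 ratio of β-glucan over PBS (y axis) against gene span in kb (x axis, log scale) for the 8 genes in the compartment (red, bars are 95% counting intervals) and among the matched cells (dark triangles, set slightly to the right). The median of all genes with at least 5 CPM per bin of span is in grey. The grey medians climb from -0.06 to 0.19, *Pde4d* lies on them, *Pde7b* moves from 0.60 to 0.30 with matching, and *Pde4b* stays below -0.7.

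Other genes were taken from 10 lists, 9 of the cAMP and cyclic GMP pathways and 1 of dissociation stress. The lists were drawn up from textbook knowledge, with earlier results of these data known. Leaving out the 8 phosphodiesterases, 69 of their 117 genes reached 5 CPM, of which 4 were at least 25% higher with β-glucan and 13 at least 20% lower, the fold used for all lists, against 3.86% and 3.12% of all 9809 genes. The 13 include 5 genes of the dissociation stress list, 2 of which, *Fosb* and *Dusp1*, are also CREB targets. Of the other phosphodiesterases, 5 of 17 reached 5 CPM. The only one past that fold was *Pde5a*, named after its value was seen, at 20.1 and 15.6 CPM with a log2 ratio of 0.36 (0.24 to 0.49). *Pde1b*, a calmodulin-dependent enzyme, was higher in all 9 clusters, with a log2 ratio of 0.21 (0.12 to 0.31), and *Pde6d* was at 28.9 and 30.04 CPM. In the cells matched on long-gene share, 0 of the 5 other phosphodiesterases were past the fold on the higher side and 1 on the lower. Their highest log2 ratio, *Pde5a* included, was then 0.21. Of all 9804 genes measured in those cells, 191 were past the fold on the higher side and 206 on the lower.

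Upstream of cAMP, the adenylyl cyclase *Adcy9* was at 86.9 and 63.3 CPM, for a log2 ratio of 0.46 (0.40 to 0.52), and was higher in all 9 clusters. *Adcy7* was at 180 and 185 CPM, for a log2 ratio of -0.04, and 3 of 10 cyclases reached 5 CPM. In the cells matched on long-gene share, 0 of these 3 were past the fold, and their highest log2 ratio was 0.27. Of the Gs-coupled receptors and the G protein, 10 of 16 reached 5 CPM, with 1 higher and 1 lower. In the matched cells 2 of these were higher and 1 lower, against the 191 and 206 of all 9804 genes. *Calcrl*, the receptor for CGRP and adrenomedullin, was at 86.5 and 50.1 CPM, for a log2 ratio of 0.79 (0.72 to 0.85), and was higher in all 9 clusters. *Adrb1*, named after its value was seen, was at 6.08 and 8.48 CPM, for a log2 ratio of -0.48 (-0.67 to -0.29). The log2 ratio was 0.08 for *Gpr65* and -0.09 for *Gnas*. The Gi genes *Gnai2* and *Gnai3* both stood at -0.04.

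Downstream of cAMP, 0 of 7 measured protein kinase A and Epac genes passed the fold. The regulatory subunit *Prkar2b* was higher in all 9 clusters, with a log2 ratio of 0.31 (0.24 to 0.38), and *Prkar2a* was at -0.10, *Prkar1a* at -0.02 and the inhibitor *Pkig* at 0.15. Of 9 anchoring proteins, *Akap10* was past the fold, at 153 and 116 CPM with a log2 ratio of 0.41 (0.36 to 0.45), and *Akap13* was at 0.19, *Akap8* at -0.01 and *Pde4dip* at -0.08. In the cells matched on long-gene share, 0 of these 9 were past the fold, and their highest log2 ratio was 0.24. The highest among the protein kinase A and Epac genes was then 0.13. Of 13 CREB factors and coactivators, 2 were lower, the kinases *Sik1* and *Sik3*. Their log2 ratios were -0.58 (-0.65 to -0.51) and -0.42 (-0.46 to -0.38). The coactivators *Crebbp* and *Ep300* were at 0.17 and 0.18. In the matched cells 3 of the 13 were lower and 0 higher, and their highest log2 ratio was 0.05. Of all 9804 genes in those cells, 206 were past the fold on the lower side and 191 on the higher.

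Genes known as CREB targets leaned lower with β-glucan. Of 12 measured, 8 were past the fold on the lower side, as were 3.12% of all 9809 genes, and 0 on the higher, against 3.86%. The list was chosen with earlier results of these data known, so nothing is read from these counts. Their median log2 ratio was -0.49. *Per1*, a clock gene, was at 35.05 and 66.9 CPM, for a log2 ratio of -0.93 (-1.01 to -0.86), and *Nr4a2*, an orphan nuclear receptor, at 31.8 and 55.6 CPM, for a log2 ratio of -0.81 (-0.89 to -0.73). Both were lower in all 9 clusters. *Fos* was at 460 and 454 CPM, and *Egr1* had a log2 ratio of -0.08. The list also held *Sik1*, already counted among the CREB factors, and *Nr4a1*, which the study compared between these libraries. In addition, 4 of the 12 genes, *Fos*, *Fosb*, *Egr1* and *Dusp1*, are also on the list of genes set off by tissue dissociation. That list had 14 genes measured, 5 lower and 0 higher, with a median of -0.17, with *Dusp1* at -0.48, *Jund* at -0.40, *Jun* at 0.22 and *Hspa1a* at 0.17. After the same matching on long genes, 7 of the 12 CREB targets were at least 20% lower, with a median of -0.44. Of all 9804 genes measured in those cells, 206 were at least 20% lower, with a median of 0.0008. Of 9 genes of cyclic GMP synthesis and its kinases, 0 reached 5 CPM.

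**Figure D5:**
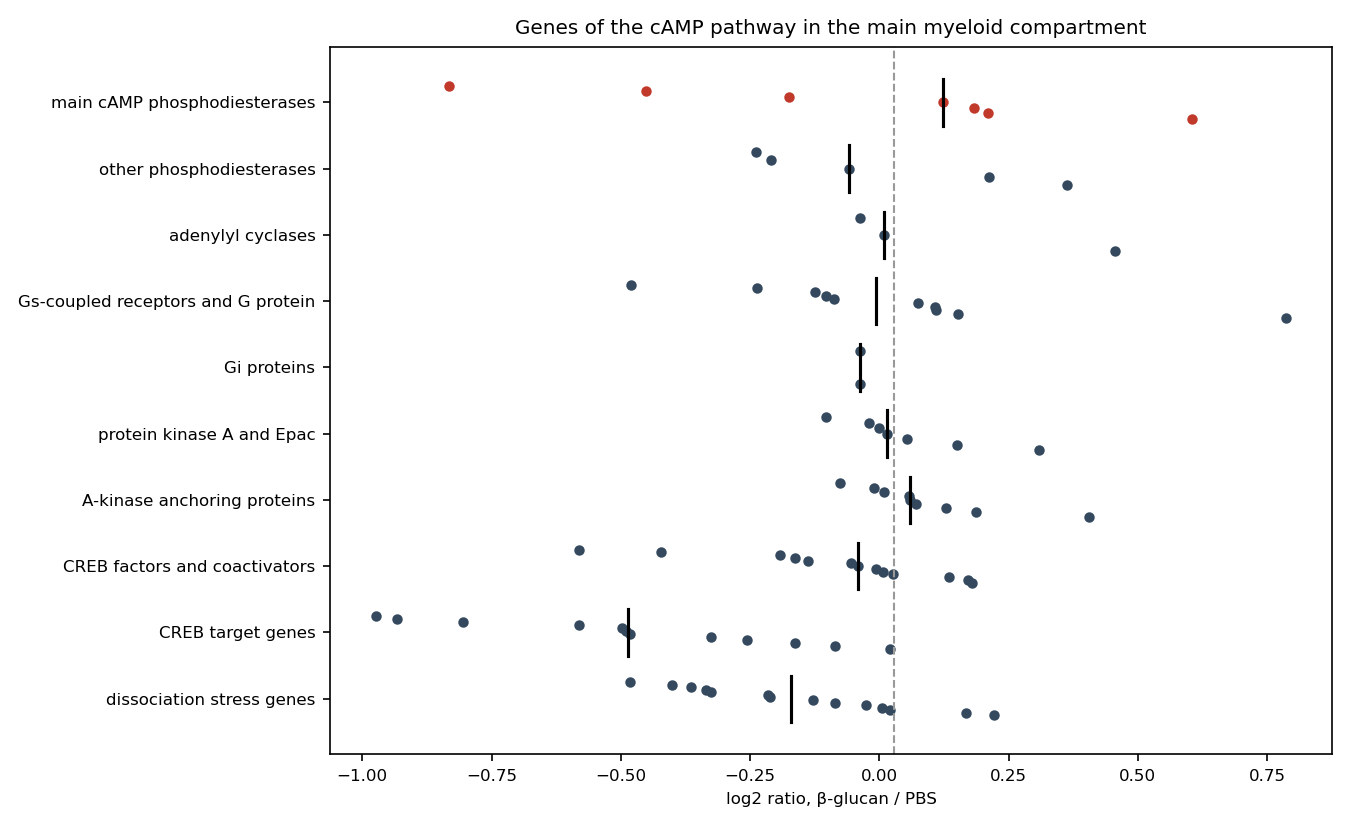
Log2 ratio of β-glucan over PBS (x axis) in the main myeloid compartment for each gene with at least 5 CPM (points), by list (y axis), with the median of each list as a black bar and the median of all 9809 genes as a dashed line. The CREB target genes have their median at -0.49 and all but *Fos* lie below 0, whereas the medians of the cyclase, receptor and kinase lists lie near the dashed line at 0.03.

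Over the 19 clusters, the genes with the profile most like that of each phosphodiesterase were sought among 10925 genes, by Pearson's r of log2(CPM + 1) with both libraries pooled, as a description without a test. The clusters share libraries and differ in depth. For *Pde4b* they were *Dennd3* (r = 0.93), *Gm29282* (0.89) and *Irf1* (0.86), and for *Pde4d* they were *Cyth3* (0.91), *Pja2* (0.90) and *Olfr1033* (0.89). *Pde7a* was most like *Gimap7* (0.96), *Glcci1* (0.96) and *Gm16158* (0.95), and *Pde7b* most like *Tanc2* (0.87), *Zfp704* (0.86) and *Slc24a3* (0.86). *Pde8a* followed *Nr6a1* (0.90), *Tmtc3* (0.88) and *Srebf1* (0.88), and *Pde3b* followed *Ube2d2a*, *Slfn8* and *Pdzd8* (0.84, 0.84 and 0.83). *Pde4a* was most like *Rnf144b* (0.93), *Cadm1* (0.84) and *Cpq* (0.82), and the sparse *Pde2a* most like *Slc28a2* (0.80), *Rasgrp2* (0.78) and *Itpkb* (0.77). Among the 8 genes themselves the highest r was 0.75 between *Pde4d* and *Pde7b*, both at their peak in basophil/mast-like cells, and the lowest was -0.70 between *Pde7a* and *Pde8a*.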

How the data were processed

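The values are the counts the authors deposited, whole UMIs per gene and barcode made with Cell Ranger 7.0.0 on GRCm39 with Ensembl 104 genes. They are unnormalised. The 12956 deposited barcodes are as many as the cells the study shows, and its stated filter, applied here, leaves 10249. The submitters' processing notes also list mm10, and whether intronic reads were counted is not given in the sources used here. Each library was 1 sample, grouped by its treatment label, and 7 barcodes occur in both libraries. Barcodes under 500 genes or over 10% mitochondrial UMIs were removed (79.2% and 79.0% stayed), leaving medians of 12458 and 14475 UMIs. Clustering used sctransform 0.4.2 and Seurat 5.3.0 under R 4.3.3, without integration, with Louvain at a resolution of 0.7 on 20 neighbours in 30 principal components of 3000 variable genes, leaving the 8 genes and the genes the study compares out of the components. The study's own cell assignment was not used, so cluster numbers differ from its numbers. A cluster was named if at least 3 markers of the best-scoring type were detected in 25% of its cells and its leading genes did not go against it. A cluster was outside the compartment if its best-scoring type was neither macrophage nor APC and at least 3 markers of that type were detected in 25% of its cells. The compartment held all other clusters, named or unnamed.

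Counts were summed per library and population in Python 3.11.15 (numpy 2.4.6, scipy 1.17.1, pandas 2.3.3) and divided by all UMIs of those cells. The code for ratios and intervals was tested on simulated data. A floor is 3 counts. Scrublet (scanpy 1.11.5) called 0 and 2 cells, too few to have worked, so doublets were kept, and an alternative left out the 328 and 210 cells of highest score. The text names the 8 genes, the 2 leading genes of each cluster, per pathway list those with the 2 top and 2 bottom log2 ratios from 20 CPM upwards, and the 3 genes most alike in profile. A gene that this rule names is not reported here. The phosphodiesterases and the lists were chosen with earlier results of these data known. Alternatives were other filters on cells, TMM scaling (edgeR 4.0.16), other totals, equal cluster weight, thinning to 8000 UMIs, matched cells, resolution 1, all cells and other CPM minimums. Leaving out clusters, macrophage-like cells alone and matching on stress genes were added after seeing the data.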

Additional observations from a re-analysis of the deposited data

Results flagged for a closer look

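For 3 genes the difference between the libraries had opposite signs in different cell types, with counting intervals on either side of 0 among 17 populations (the 9 compared clusters and 8 others). The differences between cell types were not tested. How many of all genes would show opposite signs in the same way was not counted, so nothing is read from the count of 3. *Pde4d* was higher with β-glucan in stromal-like cells (log2 ratio 1.20) and lower in cluster 17 (-1.32), with intervals above 0 in 7 populations and below 0 in 2. In cluster 17, 3 PBS cells held 64.5% of the PBS UMIs. At resolution 1, 33 β-glucan and 17 PBS cells of cluster 17 joined the stromal-led cluster, where their log2 ratio was -1.65 (-1.98 to -1.32), and in the piece led by *Ptprb* the interval was -1.09 to 0.02. The other population below 0 was cluster 6, whose larger piece had an interval of -0.08 to 0.16. Neutrophil-like cells, among the populations above 0, had an interval of -1.16 to 0.16 in the *Mmp8*/*Cxcr2* piece. In their *Acod1* piece, where 33.1% of cells were among those of highest doublet score, it was 0.28 to 0.85. *Pde7a* was higher in proliferating-like cells (0.79), from 125 and 128 UMIs, 31 of the former in 1 cell, and lower in stromal-like cells (-0.57), from 96 and 114 UMIs. *Pde8a* was higher in T cell-like cells (0.57), from 95 and 71 UMIs, and lower in stromal-like cells (-0.59), with the interval below 0 in 9 populations and above 0 in 1.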

How the results depend on the processing

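Over 14 alternatives each, the log2 ratio in the compartment kept its sign for every gene but *Pde7a*, which was -0.015 once cells were matched for long-gene UMIs. That matching gave -0.75 for *Pde4b*, 0.0076 for *Pde4d*, -0.66 for *Pde3b*, 0.30 for *Pde7b* and -0.33 for *Pde8a*. Equal weight per cluster gave -0.56 for *Pde3b*, 0.51 for *Pde7b* and -0.23 for *Pde8a*. Thinned cells gave 0.13 for *Pde4d* and -0.49 for *Pde3b*. All cells of the sort gave -0.47 for *Pde4b*, which is high in neutrophil-like and B cell-like cells. Among alternatives added after seeing the data, matching on stress genes gave -0.65 for *Pde4b*, 0.13 for *Pde4d*, -0.51 for *Pde3b* and 0.44 for *Pde7b*. Without clusters 4 and 10 *Pde4b* was -0.97. Macrophage-like clusters alone gave 0.22 for *Pde4d* and 0.50 for *Pde7b*, and *Pde7b* was 0.48 without cluster 6. The cause of these shifts was not tested. Without the cells of highest Scrublet score the highest cluster level was 535 CPM for *Pde4b*, 6607 for *Pde4d* and 644 for *Pde7a*. The counts of pathway genes at least 25% higher or 20% lower ran from 3 to 6 and from 10 to 18, but the number of measured genes differed. At a minimum of 1 CPM they were 6 and 18 of 83, against 792 and 716 of all 12385 genes. At 20 CPM they were 3 and 10 of 56, against 209 and 161 of all 6754. No paired analysis was possible because each group is 1 library, and no library could be left out. Sums under about 20 UMIs give wide intervals, as for *Pde2a*, whose intervals include 0 in each cell class outside the compartment.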
